A study of Elodea nuttallii and Chlamydomonas reinhardtii with 18 samples.

Results

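Cells of Chlamydomonas reinhardtii, a single-celled green alga, were kept in the River Olt, at 1 of 3 sites, over an exposure of 2 h, and the transcript levels of the cells exposed at Babeni site 1 were compared with those of the cells exposed at Valcea, the site that the sample names call the control. The comparison rests on 6 of the 18 libraries of the series, the 3 titled for Babeni site 1 and the 3 titled for Valcea, taken from the table of normalised read counts of the alga. The series title names the environmental toxicity of mercury as its subject, and no mercury measurement from the sites was used here. Before exposure all cells had grown to the middle of exponential phase in tris-acetate-phosphate medium diluted 4 times, and RNA was taken from whole cells. The labels name no strain. A further 3 libraries of the alga came from Babeni site 2, and their levels are given beside the others without a test of their own.

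Chlamydomonas swims with flagella, holds a single large chloroplast and can grow on light, on acetate or on both. It is used to study photosynthesis, uptake of inorganic carbon, and the response of cells to metals. Mercury binds thiol groups of proteins and of small molecules such as glutathione. In such an alga, transcripts respond within hours to light, carbon supply, nutrients and temperature as well as to metals, and a change of site can alter all of these at once.

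The deposited tables give Chlamydomonas genes as identifiers only and do not pair them with gene names, so no pathway, marker or gene family could be described and the labelled cell type could not be checked against its markers. Genes are therefore described in groups, by direction, size, level, library and position, and 4 identifiers are given in full. Identifiers that start with Cre carry the number of the chromosome, and identifiers made of g and a number carry none. Levels are CPM (normalised read counts, scaled to library size with a factor for each library), and log2 differences are Babeni site 1 minus Valcea on the log2(CPM + 0.5) scale given ± their standard error (SE). On that scale the change of weakly expressed genes comes out too small. A gene is said to have risen or fallen where limma's Benjamini-Hochberg adjusted p over all tested genes was under 0.05 and the difference was at least 2-fold. The labels do not tell whether libraries with the same site are separate cultures, so the spread behind each p may be a technical one.

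The 6 libraries held 11176249 to 14097458 reads, with a median of 12088738.5, over 13566 genes. At this depth 3 reads equal 0.202 to 0.262 CPM in the libraries of Babeni site 1 and 0.221 to 0.283 CPM in those of Valcea. Few of these 13566 genes were without any read, 16 to 28 per library at Babeni site 1 and 28 to 48 at Valcea. Only 2 had no read in all 6 libraries. Whether genes with few reads had been removed beforehand could not be told from the values. The counts of genes without reads thus hold only for the genes given. No gene with reads in all 3 Valcea libraries lacked reads in all 3 of Babeni site 1. In the other direction 4 genes had reads in every library of Babeni site 1 and none at Valcea, with 1 to 18 reads per library, and all 4 lay under the filter on low values and were not tested.

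The 3 libraries of Babeni site 1 resembled one another less than those of Valcea did. Over the 12938 tested genes, Pearson's correlation of log2 levels was 0.967 between replicates 1 and 2 of Babeni site 1, 0.968 between replicates 2 and 3, and 0.943 between replicates 1 and 3. Between Valcea replicates it was 0.984 (1 and 2), 0.993 (1 and 3) and 0.984 (2 and 3). These are correlations across genes, which are not independent replicates. Replicates 1 and 3 of Babeni site 1 were thus about as far from each other as each was from the Valcea libraries, with 0.944 to 0.946 for replicate 1 and 0.941 to 0.943 for replicate 3. Replicate 2 lay at 0.934 to 0.943 from Valcea.

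**Figure D1:**
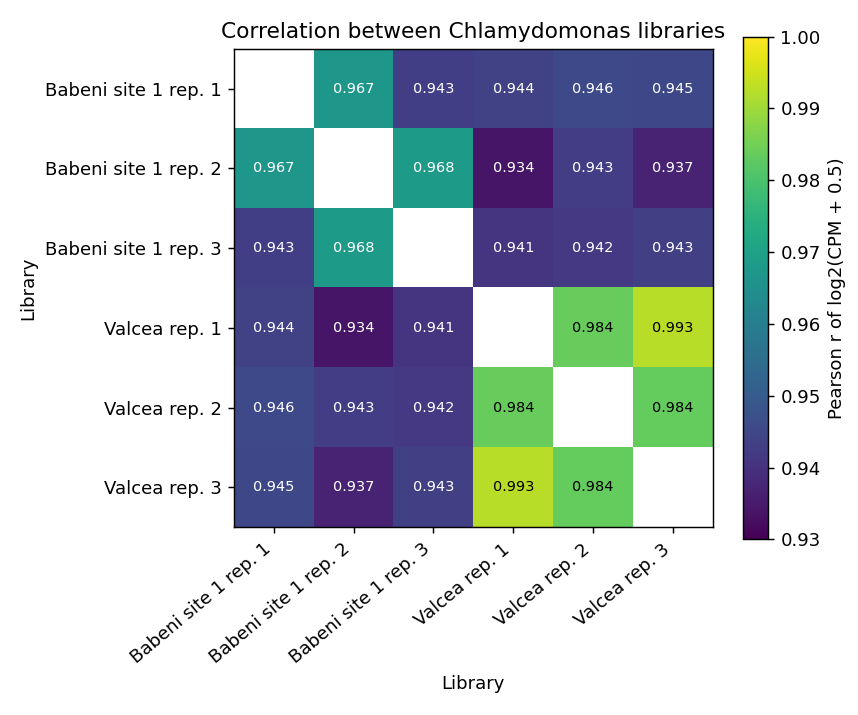
Pearson's correlation of log2(CPM + 0.5) over the tested genes for each pair of the 6 libraries, with the 3 libraries of Babeni site 1 above and left of the 3 of Valcea. The Valcea pairs lie at 0.984 or more, and replicates 1 and 3 of Babeni site 1 are at 0.943.

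Counted gene by gene, 1725 genes differed at least 2-fold between replicates 1 and 3 of Babeni site 1, 974 between replicates 1 and 2, and 881 between replicates 2 and 3. Among Valcea libraries these numbers were 351 for replicates 1 and 2, 66 for replicates 1 and 3 and 364 for replicates 2 and 3. The SD of a gene's log2 level over 3 libraries had a median of 0.310 at Babeni site 1, 0.130 at Babeni site 2 and 0.170 at Valcea. It was larger at Babeni site 1 than at Valcea in 9602 genes, 74.2% of those tested. An SD of at least 0.5 was found in 21.4% of genes at Babeni site 1, in 3.76% at Babeni site 2 and in 5.05% at Valcea. Replicate 2 held the middle level among the Babeni site 1 libraries in 42.4% of genes, replicate 1 in 30.5% and replicate 3 in 27.2%. The counts of each pair of libraries of a site differed by more than sampling noise, the chi-square per gene being 60.7 to 85.1 at Babeni site 1 and 24.3 to 55.3 at Valcea, so no pair was counted as 1 library deposited again. This does not show that the libraries came from separate cultures. The chi-square is a mean over genes, on which abundant genes weigh. At Valcea it was highest for replicates 1 and 3, the pair with only 66 genes 2-fold apart. In these 2 libraries the gene g15293, described below, had 900011 and 180802 reads. Between libraries of Babeni site 2 the chi-square per gene was 2.17 to 6.40.

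**Figure D2:**
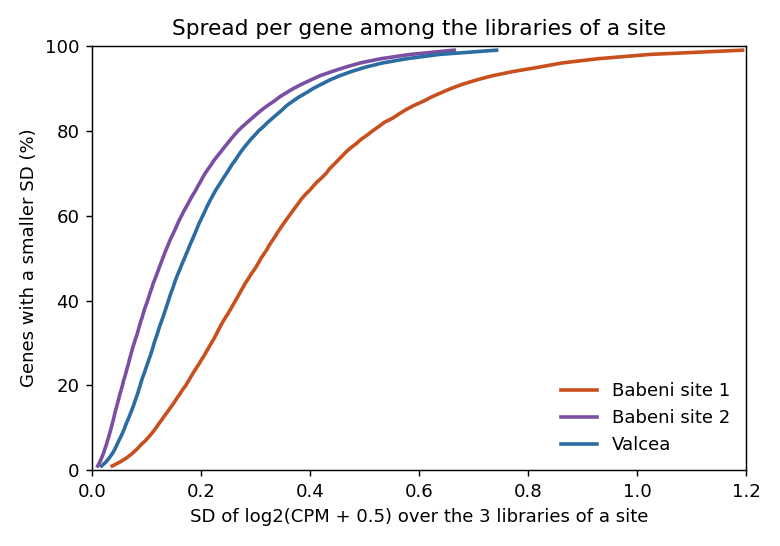
Cumulative share of the tested genes (y axis, %) by the SD of log2(CPM + 0.5) over the 3 libraries of a site (x axis). The curve of Babeni site 1 lies to the right, with a median SD of 0.310, against 0.130 at Babeni site 2 and 0.170 at Valcea.

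To let this spread enter the error, only the 6 libraries of these sites were fitted. The fit pooled the spread of both sites into 1 value per gene, although the spread was mostly larger at Babeni site 1. No p therefore rests on the spread of Babeni site 1 alone, and a fit that weights the sites by their own spread is given below. By limma, 959 of the 12938 tested genes differed at Babeni site 1 from Valcea under both criteria, which is 7.41% of those tested. The larger share rose, with 682 genes (5.27%) against 277 that fell (2.14%), so that 71.1% of the changes were increases. The median over all tested genes was -0.02 on the log2 scale, with a median SE of 0.23. Without the 2-fold limit 1773 genes (13.7%) had an adjusted p under 0.05, among them 814 of less than 2-fold, of which 421 were higher and 393 lower at Babeni site 1. Unadjusted p was under 0.05 in 4180 genes.

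**Figure D3:**
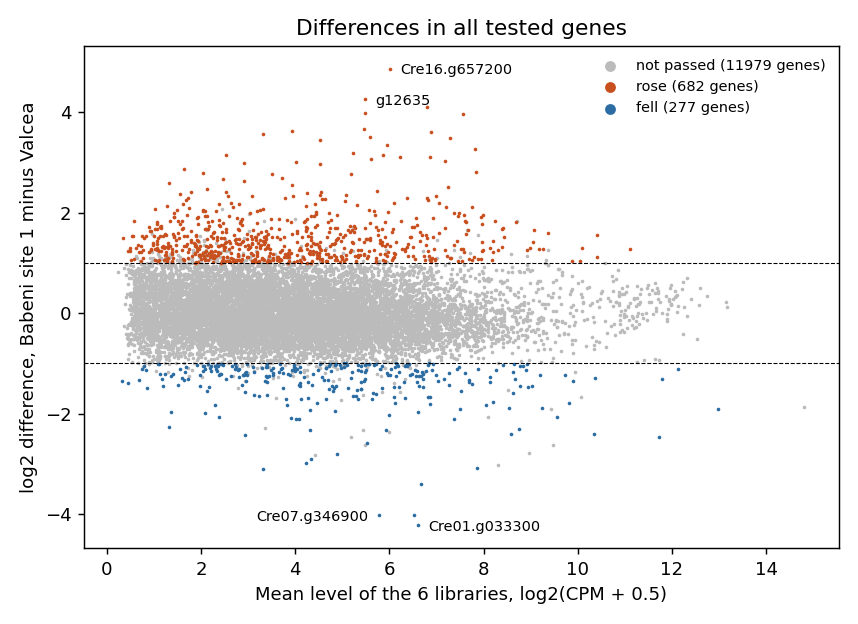
The log2 difference between Babeni site 1 and Valcea (y axis) of each tested gene against its mean level over the 6 libraries (x axis, log2(CPM + 0.5)). Coloured points are the 682 genes that rose and the 277 that fell, grey points did not pass, dashed lines mark 2-fold, and 4 identifiers are labelled.

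Most changes were small. Among the risen genes 598 differed by less than 4-fold, 62 by 4-fold to under 8-fold, and 22 by 8-fold or more, with a median log2 difference of 1.36. Of the fallen genes 252 differed by less than 4-fold, 19 by 4-fold to under 8-fold, and 6 by 8-fold or more, with a median of -1.23. In each of the 959 genes the 3 libraries of Babeni site 1 lay all above or all below the 3 of Valcea. Such a separation was common in the whole table. It held for 2478 genes with Babeni site 1 higher (19.2% of those tested) and 2383 with Babeni site 1 lower (18.4%), together 37.6% of tested genes.

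The risen genes were at lower levels at Valcea than the fallen ones. Their mean level per gene had a median of 15.5 CPM at Babeni site 1, 18.03 CPM at Babeni site 2 and 5.401 CPM at Valcea. For the fallen genes the median was 15.3 CPM at Babeni site 1, 12.8 CPM at Babeni site 2 and 38.7 CPM at Valcea. The comparisons of each Babeni site with Valcea share the Valcea libraries, and the genes were chosen on Babeni site 1 and Valcea. By mean level over the 6 libraries, 69 genes rose and 14 fell among the 1167 under 2 CPM, and 260 rose and 66 fell among the 4249 from 2 to 10 CPM. Of the 6096 genes from 10 to 100 CPM 264 rose and 135 fell. Of the 1426 genes at 100 CPM or more 89 rose (6.24%) and 62 fell (4.35%). Increases thus outnumbered decreases in each level class, and the ratio of increases to decreases was highest under 2 CPM and next highest from 2 to 10 CPM. The median log2 difference of all tested genes also went down with level. It was 0.108 under 2 CPM, 0.046 from 2 to 10 CPM, -0.065 from 10 to 100 CPM and -0.080 at 100 CPM or more. The ratios are therefore not read as a result about weakly expressed genes.

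The largest increase among genes with at least 5 CPM at the higher site was that of Cre16.g657200, on chromosome 16. Its level was 110 CPM, 191 CPM and 71.7 CPM in replicates 1, 2 and 3 of Babeni site 1, against 2.84 CPM, 5.29 CPM and 2.73 CPM in those of Valcea. All libraries of Babeni site 1 lay far above those of Valcea, and replicate 3 was the lowest of them. The log2 difference was 4.86 ± 0.36 (SE, limma adjusted p = 0.00064), a ratio of mean levels of 34.3. The 3 libraries of Babeni site 2 stood higher still and close together, at 309 ± 7.21 CPM (SD, n = 3).

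The next largest increase was that of g12635, an identifier that names no chromosome. It had 87.4 CPM, 112 CPM and 53.5 CPM in the Babeni site 1 replicates and 3.95 CPM, 4.82 CPM and 2.73 CPM in the Valcea replicates. Replicate 3 was again lowest within Babeni site 1 and replicate 2 highest, the same order as for Cre16.g657200. Its log2 difference was 4.26 ± 0.29 (SE, limma adjusted p = 0.00064), the smallest unadjusted p of all tested genes. At Babeni site 2 it had 324 ± 5.75 CPM (SD, n = 3).

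The steepest fall was that of Cre01.g033300, on chromosome 1. Its level was 19.6 CPM, 12.7 CPM and 2.62 CPM in replicates 1, 2 and 3 of Babeni site 1, against 148 CPM, 255 CPM and 142 CPM in those of Valcea. The Babeni site 1 libraries spanned a range of 7.49-fold among themselves, and the Valcea libraries 1.80-fold. The log2 difference was -4.22 ± 0.58 (SE, limma adjusted p = 0.0041), lower in all 3 libraries. Without Babeni site 1 replicate 3, the lowest library, it was -3.43 and still passed. At Babeni site 2 this gene stood at 417 ± 16.3 CPM (SD, n = 3), above the levels of both other sites.

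Next came Cre07.g346900, on chromosome 7, which of the 4 had the widest range among the libraries of Babeni site 1. They held 0.808 CPM, 6.74 CPM and 22.1 CPM, a span of 27.3-fold, against 77.0 CPM, 132 CPM and 89.6 CPM at Valcea. Behind these levels were 12, 82 and 253 reads at Babeni site 1 and 896, 1393 and 1215 reads at Valcea. The log2 difference was -4.02 ± 0.80 (SE, limma adjusted p = 0.0151). This call was lost without Babeni site 1 replicate 2 (adjusted p = 0.0663), without Valcea replicate 2 (0.0602) and without Valcea replicate 3 (0.0524), with log2 differences of -4.16, -3.80 and -4.08 in these fits. Over all 21 alternatives its adjusted p ran from 0.00013 to 0.0663. The size of the fall depended on the library and the scale, with a log2 difference of -2.93 without Babeni site 1 replicate 1 and -4.98 without replicate 3. On the recovered reads it was -3.30 by edgeR and -3.33 by DESeq2, and the mean level at Valcea was 10.1 times that at Babeni site 1. At Babeni site 2 the gene had 12.8 ± 0.115 CPM (SD, n = 3). Here replicate 1 was farthest from Valcea and replicate 3 nearest, the reverse of the order in Cre01.g033300.

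**Figure D4:**
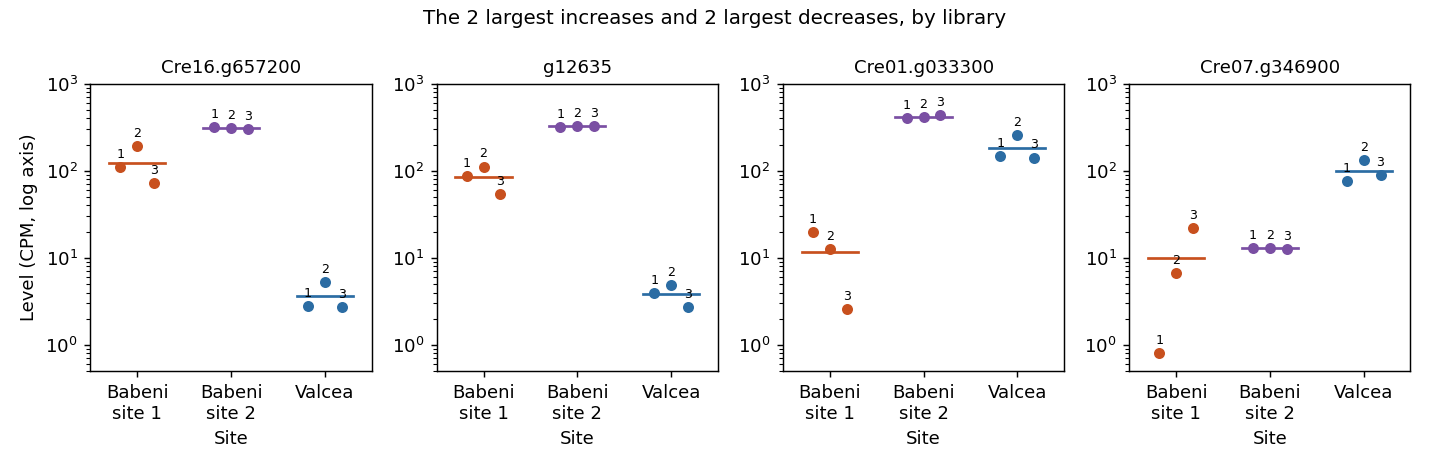
Levels (CPM, log axis) of the 4 identifiers in each library of Babeni site 1, Babeni site 2 and Valcea, with replicate numbers above the points and bars at the means. Cre16.g657200 and g12635 are higher, and Cre01.g033300 and Cre07.g346900 lower, in all 3 libraries of Babeni site 1 than in those of Valcea, and the points of Babeni site 1 are the most scattered.

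The libraries of Babeni site 1 did not carry the changes to an equal degree. Against the mean of the Valcea libraries, the median log2 difference of the 682 risen genes was 1.16 in replicate 1, 1.55 in replicate 2 and 1.45 in replicate 3. For the 277 fallen genes it was -1.44 in replicate 1, -1.31 in replicate 2 and -0.98 in replicate 3. Replicate 1 was the nearest to Valcea in 420 risen genes, and replicate 3 in 171 fallen genes. Replicate 2 was nearest in 71 risen and 45 fallen genes. Over all tested genes the median level was 13.3 CPM, 13.5 CPM and 14.0 CPM in replicates 1, 2 and 3 of Babeni site 1. In those of Valcea it was 13.5 CPM, 13.4 CPM and 13.4 CPM. Which library was lowest or highest was not counted over all tested genes. The counts by library here and below therefore have no such share beside them, and a general offset between libraries was not tested. All 3 libraries were past 2-fold of the Valcea mean in 387 of the risen and 100 of the fallen genes.

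The risen genes fell into uneven groups by the library in which they were highest. In the 320 genes highest in replicate 2, the median level was 22.1 CPM, 35.5 CPM and 27.1 CPM in replicates 1, 2 and 3 of Babeni site 1, against 7.52 CPM, 9.21 CPM and 8.22 CPM in those of Valcea. In the 260 genes highest in replicate 3 it was 7.92 CPM, 10.8 CPM and 14.5 CPM at Babeni site 1, against 3.69 CPM, 3.59 CPM and 4.13 CPM at Valcea. The 102 genes highest in replicate 1 had 15.1 CPM, 12.1 CPM and 9.47 CPM at Babeni site 1, against 4.81 CPM, 3.68 CPM and 4.57 CPM at Valcea. Among the fallen genes replicate 1 was most often the lowest, in 153 genes, with medians of 16.7 CPM, 27.4 CPM and 35.2 CPM at Babeni site 1 and 67.3 CPM, 70.3 CPM and 70.7 CPM at Valcea. Replicate 2 was lowest in 74 fallen genes and replicate 3 in 50. The groups were formed on these levels, so their medians describe them and test nothing.

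Counted library by library against the Valcea mean, 819 genes were at least 2-fold higher and 741 at least 2-fold lower in replicate 1 of Babeni site 1. In replicate 2 these were 1194 and 703 genes, and in replicate 3 they were 1111 and 482. Each Valcea library, set in the same way against the mean of the other 2, had 24 genes higher and 28 lower (replicate 1), 158 and 134 (replicate 2), and 14 and 34 (replicate 3). The numbers at Babeni site 1 exceeded those of every Valcea library, and at Babeni site 2 they were 2315 to 2386 higher and 2317 to 2365 lower genes per library.

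A difference of at least 2-fold did not pass the adjusted p in 211 genes, 126 of them higher and 85 lower at Babeni site 1. Their SD had a median of 0.838 among the Babeni site 1 libraries and 0.327 among the Valcea libraries, and in the genes that changed these medians were 0.396 and 0.212. The spread was thus larger at both sites in the genes that did not pass, which the test itself brings about, since it sets the difference against the spread. The range over the 3 libraries of a site reached 4-fold in 244 genes at Babeni site 1 and in 13 at Valcea, and 8-fold in 47 genes at Babeni site 1 and in 0 at Valcea. In 202 genes the range was at least 4-fold at Babeni site 1 and under 2-fold at Valcea, and 163 of these did not pass, 21 rose and 18 fell. Over all 12938 tested genes 5.27% rose and 2.14% fell, so calls were not rarer among the 202. Replicate 1 was the lowest library in 129 of the 202 and the highest in 58, whereas replicate 3 was the highest in 106 and the lowest in 56. Replicate 2 was the highest in 38 and the lowest in 17.

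The changed genes took up different parts of the libraries. The risen genes held 4.05%, 6.58% and 5.75% of all reads in replicates 1, 2 and 3 of Babeni site 1, against 1.79%, 1.86% and 1.97% in those of Valcea. The fallen genes held 1.68%, 2.295% and 3.30% at Babeni site 1 and 6.96%, 6.34% and 6.44% at Valcea. At Babeni site 2 the risen genes held 4.93% to 4.95% and the fallen ones 1.77% to 1.94%. These shares follow from the choice of the genes and carry no test. Of the 159 tested genes with a mean of at least 1000 CPM, 5 rose and 6 fell, and of the 11 genes with at least 5000 CPM none rose and 1 fell. Over all tested genes 5.27% rose and 2.14% fell, and so few calls are not read as a result about abundant genes.

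The most abundant gene of the 6 libraries, g15293, was chosen after its values were seen because it weighs on the library totals. It had 4924 CPM, 11348 CPM and 17997 CPM in the Babeni site 1 replicates and 77323 CPM, 47440 CPM and 13328 CPM in the Valcea replicates. The groups overlapped, since Valcea replicate 3 lay below Babeni site 1 replicate 3. Its log2 difference was -1.87 ± 0.64 (SE), and it did not pass (limma adjusted p = 0.0796). This gene alone took 7.75% of the reads of Valcea replicate 1 and 1.41% of those of Valcea replicate 3, and the 10 most abundant genes together took 7.14% to 8.28% of the reads at Babeni site 1 and 7.34% to 14.6% at Valcea. The part of this gene in the other results was not tested.

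By chromosome number, changes were spread over all 17 chromosomes. The share of tested genes that changed ran from 2.02% on chromosome 15, with 2 risen genes of 99 tested, to 9.94% on chromosome 11, with 10 risen and 6 fallen of 161. Chromosome 16 had 46 risen and 23 fallen of 700 genes, and chromosome 17 had 39 risen and 7 fallen of 661. Chromosome 13 had 30 risen and 5 fallen of 518. The 3068 tested genes without a chromosome in the identifier changed in 7.01%, close to the 7.41% of all tested genes.

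Some risen genes were neighbours in the number order of the identifiers, taken within a chromosome number without a check against a genome. Of 528 risen genes with a chromosome number, 89 (16.9%) had a risen gene directly before or after them among the tested identifiers, against 9.96% of the 9126 genes that did not pass. For the 216 fallen genes 27 (12.5%) had a fallen neighbour, against 4.16% of the genes that did not pass. These shares are descriptions, and untested genes between 2 identifiers were passed over. There were 8 runs of 3 or more neighbouring risen genes, on chromosomes 2, 6, 9, 11, 12, 14 and 16, and the longest held 4 genes. On chromosome 9 a run of 4 had log2 differences of 1.33 to 1.95, on chromosome 12 a run of 4 had 1.53 to 1.89, and on chromosome 16 a run of 4 had 1.30 to 2.78. A run of 3 on chromosome 16 included Cre16.g657200, whose log2 difference of 4.86 was the highest of the run, and the lowest was 1.05. The only run of 3 fallen genes was on chromosome 7 and included Cre07.g346900, with log2 differences of -4.02 to -1.38. Whether neighbours are near copies that share reads could not be checked without sequences.

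The authors' deposited table of this comparison lists 1610 genes, of which 1209 have a positive and 401 a negative log2 fold change, read from the title as Babeni site 1 over Valcea. Its title also names limits, read as a false discovery rate of 0.05 and a 2-fold change. The authors' fold changes differ from those on the log2(CPM + 0.5) scale used here, as the named identifiers below show. The same 2-fold limit can therefore divide genes differently in the authors' list and here. Of the 1209 listed as higher, 681 rose here (56.3%), and of the 401 listed as lower, 269 fell here (67.1%). Conversely, 99.9% of the risen and 97.1% of the fallen genes stand in the authors' deposited table with the same sign, and no gene was called in opposite directions. The table was made from the same libraries, so this overlap is no independent support. Of the listed genes that are not called here, 166 lay under the filter on low values, 102 passed the adjusted p but not the 2-fold limit, and 392 had an adjusted p of 0.05 or more. The listed genes that were tested and did not pass had a median SD of 0.506 among the Babeni site 1 libraries and a median level of 3.48 CPM over the 6 libraries, against 0.392 and 14.5 CPM in those that were called. For the named identifiers, the authors' deposited table gives log2 fold changes of 5.11 for Cre16.g657200, 4.47 for g12635, -3.95 for Cre01.g033300 and -3.35 for Cre07.g346900.

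The number of changed genes differed between the fits with 1 library left out. Each of these sets 3 libraries against 2 and pools the unequal spread of the sites. The counts therefore do not tell the part of the library left out from that of the smaller, uneven groups. Without Babeni site 1 replicate 1 it was 1272, with 950 risen and 322 fallen, and without replicate 3 it was 1178, with 698 risen and 480 fallen. Leaving out Babeni site 1 replicate 2, the library most often in the middle, gave 396 changed genes (280 risen and 116 fallen). Without Valcea replicate 1 the number was 369 (279 and 90), without replicate 2 it was 627 (479 and 148), and without replicate 3 it was 357 (280 and 77). In all 6 of these fits 212 of the 682 risen and 59 of the 277 fallen genes were called, and no changed gene took the opposite sign in any of them. Increases outnumbered decreases in each fit, from 59.3% of the changes without Babeni site 1 replicate 3 to 78.4% without Valcea replicate 3.

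**Figure D5:**
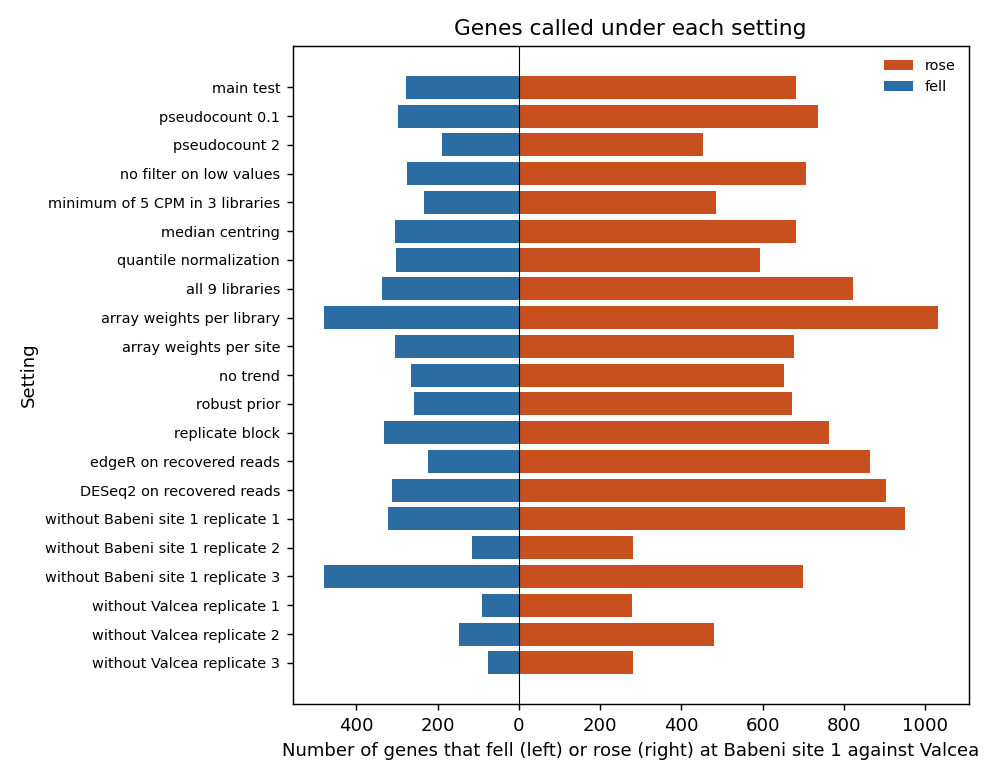
Number of genes that rose (bars to the right) and fell (bars to the left) at Babeni site 1 against Valcea under the reported test and each alternative that keeps the 2-fold limit (y axis). The bars are shortest without Babeni site 1 replicate 2, Valcea replicate 1 or Valcea replicate 3, and longest with array weights per library, where 1031 rose and 481 fell.

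A count model gave more increases. edgeR's quasi-likelihood test on the recovered reads called 865 genes risen and 223 fallen, and DESeq2 called 904 risen and 312 fallen. Of the genes called by limma 679 risen and 213 fallen were called by both tools. Weighting the 2 sites by their own spread, with a weight of 0.553 for each Babeni site 1 library and 1.81 for each Valcea library, gave 678 risen and 305 fallen genes. Of these 649 risen and 268 fallen genes were shared with the calls at equal weights.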

How the data were processed

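Stranded mRNA libraries (TruSeq kit, TRI-Reagent RNA, per the labels' protocols) were quantified by the authors, with edgeR 3.4.2, HTSeq 0.5.3p9, TopHat2 2.0.11 and BWA 0.7.10 listed, roles unstated, per the submitters' processing notes. The genome build is not given in the sources used here, nor is the annotation. The deposited table of the alga holds a scaled signal, which its title calls edgeR CPM. The authors' deposited comparison table holds log2 fold changes, log2 mean CPM, p-values and false discovery rates per the file headers.

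The plan assumed plain CPM. Library totals run from 943616.1 to 1058461.7, so values are treated as reads divided by a library factor. In each library 100% of values were within 0.01 of whole reads, and reads were recovered. The test, run in R 4.3.3, was limma 3.58.1 with a trended prior, on log2(CPM + 0.5) of the 12938 genes with at least 1 CPM in 3 of the 6 libraries, with Benjamini-Hochberg adjustment and no covariates. It was also run on simulated reads with 200 changed genes, in which genes varied independently within a site. Real libraries of a site can differ in many genes together, so the simulation does not check the calls against such differences. Alternatives were other pseudocounts, filters, normalizations, weights and priors, all 9 libraries, a replicate block, each library left out, and, on the recovered reads, DESeq2 1.42.0 and edgeR 4.0.16, which called 1088 genes. Identifiers matched none of the 30 gene lists planned, so no list was used. Named identifiers are the 2 largest increases and the 2 largest decreases, given 5 CPM or more on average at the higher site. The comparison, lists and rules were chosen with earlier results of these data known. The floor of 3 reads covers counting error only.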

Additional observations from a re-analysis of the deposited data

How the results depend on the processing

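The counts at the reported settings were 959 changed, 682 risen and 277 fallen genes. A pseudocount of 2 gave 454 risen and 189 fallen genes, with 643 changed. Array weights per library gave 1512 changed, 1031 risen and 481 fallen. Adjusted p without the 2-fold limit gave 1773 changed, 1103 risen and 670 fallen. With 1 library left out the counts ran from 357 to 1272 changed, 279 to 950 risen and 77 to 480 fallen. With the replicate number as a block (replicate block) 1095 genes changed, 763 risen and 332 fallen. Deviations of same-numbered libraries from their site means correlated at 0.0662, 0.243 and 0.0815, and those of different-numbered libraries at -0.213 to 0.0934. Babeni site 1 replicates 1 and 2 correlated best with their own number, and replicate 3 with Valcea replicate 1 (0.0934). These values do not settle whether the numbers pair the samples, and the reported test does not pair them. Under the other alternatives risen genes numbered 484 (minimum of 5 CPM) to 904 (DESeq2). Called under each of the 14 alternatives other than left-out libraries and the dropped 2-fold limit were 359 risen and 132 fallen genes. Cre16.g657200, g12635 and Cre01.g033300 were called under all 21 alternatives. Among these, the dropped 2-fold limit uses the reported fit, so each gene called there passes it by construction. The median SD at Babeni site 1 was 0.260 with a pseudocount of 2, against 0.310 with 0.5. The filter of 1 CPM in 3 libraries left 628 genes out of the reported test, and it lies above the floor of 3 reads. The fit without the filter tested them along with the others. Over all 13566 genes of that fit 706 rose and 276 fell, and 674 and 273 of these were also called in the reported test.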
